A study of Mus musculus with 12 samples.

Results

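Imprinted genes are read from only 1 of the 2 parental copies, and many of them set the rate of growth before birth. Of the 10 imprinted growth genes followed here (Igf2, H19, Meg3, Dlk1, Grb10, Cdkn1c, Plagl1, Peg3, Mest and Igf2r), 9 had at least 1 probe set that the array annotation gave to that symbol alone. Together these were 30 of the 34945 probe sets with 1 symbol, controls left out. The only probe set of H19 was annotated to H19 and Mir675 together, a microRNA gene that lies within H19, so it was not counted among the 30 and its values are given apart. All 30 are accounted for below, and the brightest probe set of a gene in a tissue, that with the highest mean over 6 samples, stands for the gene where 1 value is needed.

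The samples were liver and quadriceps muscle of 4-week-old C57BL/6 mice, after weaning. Their dams ate a normal protein diet (NP, 20% casein) throughout pregnancy and drank either water or, from day 1 of pregnancy, water with 1% taurine (NP+tau), an amino sulphonic acid that is not built into protein. Each of the 4 groups held 3 samples, 1 array each. Per the methods of the study, no dam gave more than 1 of the pups, and both tissues were taken from every pup. The offspring themselves had no genetic change, and both diet groups shared the protein level of the diet.

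The members act at different steps of growth control. Igf2 is a paternally expressed growth factor of the fetus, Igf2r the receptor that clears it, and H19 the maternally expressed non-coding RNA next to Igf2. Dlk1 encodes a membrane protein that holds back differentiation of precursor cells, and Meg3 is the non-coding RNA that starts the maternally expressed RNA cluster of the same domain. Grb10 is an adaptor that dampens insulin and growth factor receptor signalling, and Cdkn1c an inhibitor of the cell cycle. Plagl1 and Peg3 are zinc finger proteins, and Mest is a paternally expressed gene related to hydrolases. Most of these genes are high in fetal tissues and decline after birth.

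The loci lie on 6 chromosomes of the mouse genome (GRCm38.p6, RefSeq). Igf2 spans chr7:142650768-142666816 and H19 spans chr7:142575530-142578146 near it. Cdkn1c (chr7:143458339-143461059) and Peg3 (chr7:6703892-6730462) are on the same chromosome. Dlk1 (chr12:109452485-109463336) and Meg3 (chr12:109540996-109571729) are neighbours, with Rian and Mirg following Meg3. Plagl1 is at chr10:13090832-13131694, Grb10 at chr11:11930499-12037428, Igf2r at chr17:12682406-12769706 and Mest at chr6:30733506-30748466.

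The RefSeq promoters of 5 members are shown, those in which every NP+tau muscle sample lay below every NP muscle sample, a choice made after the values were seen, each 300 bases long (250 before to 50 after the annotated start), on the strand of the gene. Capitals mark CpG, the dinucleotide whose methylation carries imprints. Igf2 is shown at the richest in CpG of its 4 annotated starts (chr7:142658755-142659054, minus strand), Meg3 at its upstream start (chr12:109540746-109541045, plus strand), Dlk1 at chr12:109452573-109452872 (plus strand), Peg3 at chr7:6730370-6730669 (minus strand) and Plagl1 at chr10:13090582-13090881 (plus strand).
Igf2: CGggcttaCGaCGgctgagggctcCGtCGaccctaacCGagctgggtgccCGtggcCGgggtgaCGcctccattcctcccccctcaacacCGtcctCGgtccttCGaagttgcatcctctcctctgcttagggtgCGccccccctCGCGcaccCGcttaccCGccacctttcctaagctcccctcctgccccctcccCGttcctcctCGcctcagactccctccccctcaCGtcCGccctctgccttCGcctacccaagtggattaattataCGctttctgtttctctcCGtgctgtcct
Meg3: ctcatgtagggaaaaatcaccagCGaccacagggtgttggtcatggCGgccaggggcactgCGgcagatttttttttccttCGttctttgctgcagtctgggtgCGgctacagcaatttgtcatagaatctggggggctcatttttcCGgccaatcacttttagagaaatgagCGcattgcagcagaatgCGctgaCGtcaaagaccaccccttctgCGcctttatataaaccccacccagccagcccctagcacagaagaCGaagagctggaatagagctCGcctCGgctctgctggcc
Dlk1: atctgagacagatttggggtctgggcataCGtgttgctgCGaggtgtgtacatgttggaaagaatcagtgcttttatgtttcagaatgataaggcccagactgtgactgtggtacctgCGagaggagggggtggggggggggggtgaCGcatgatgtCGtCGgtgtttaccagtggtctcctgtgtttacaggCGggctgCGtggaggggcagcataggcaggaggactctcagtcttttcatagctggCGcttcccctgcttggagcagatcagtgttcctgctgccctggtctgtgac
Peg3: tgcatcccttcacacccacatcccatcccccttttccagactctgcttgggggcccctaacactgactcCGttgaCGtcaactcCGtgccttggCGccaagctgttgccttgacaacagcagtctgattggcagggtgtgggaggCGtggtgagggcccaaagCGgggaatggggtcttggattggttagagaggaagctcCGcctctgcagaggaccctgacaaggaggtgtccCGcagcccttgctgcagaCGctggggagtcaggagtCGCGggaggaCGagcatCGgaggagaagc
Plagl1: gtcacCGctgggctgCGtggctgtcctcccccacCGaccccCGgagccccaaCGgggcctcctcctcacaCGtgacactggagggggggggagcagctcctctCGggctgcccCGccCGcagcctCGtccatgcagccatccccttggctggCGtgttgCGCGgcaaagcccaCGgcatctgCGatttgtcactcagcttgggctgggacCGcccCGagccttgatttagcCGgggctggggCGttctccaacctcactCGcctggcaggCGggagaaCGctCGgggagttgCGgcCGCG
The promoter of Plagl1 held 26 CpG, a count reached by 16.9% of all 32851 RefSeq promoters, whose median was 7. Igf2 held 24 at the start shown, Meg3 and Peg3 13 each and Dlk1 9, the last 3 near the middle of all promoters. GGGGCCCC, a sequence that the Plagl1 protein is known to bind and that reads the same on both strands, was in 1 of the 15 promoters of 8 members, that of Peg3, and in 1.08% of all promoters. Methylation and binding were not measured, so these are descriptions of the sequence only.

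All values below are log2 RMA expression values, and a difference of 1 is a 2-fold difference. Each tissue was normalised apart and values of different probe sets are not comparable as amounts. A gene was taken as above background in a sample where it lay above the 95th percentile of probe sets of 77 genes of other organs, 5.38 in liver and 5.57 in muscle. Samples were compared with limma over 29274 probe sets per tissue, of which 0.0% in liver and 0.0% in muscle passed an adjusted p of 0.05, while 1372 and 1793 had an unadjusted p under 0.05. No member passed the adjusted threshold in either tissue, with a lowest adjusted p of 0.718 in liver and 0.707 in muscle. The words lower and higher are therefore used of measured values, with no claim of a change. With 3 samples against 3, the exact permutation test cannot go below p = 0.1, which is what it gives for each pair of groups that do not overlap.

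Some features of the samples bear on every comparison. Hepatocyte markers averaged 14.2 to 14.3 in the liver samples and markers of skeletal muscle fibres 13.8 to 14.1 in the muscle samples. In both tissues Xist, the RNA of the silenced X chromosome, was above 10 in the 3 NP samples and NP+tau sample 1 and below 6 in NP+tau samples 2 and 3, where the Y-linked Eif2s3y was 8.55 to 9.37 against 3.48 to 3.78 in the others. The methods of the study state that groups held both sexes, which is not the pattern of the NP samples here. Diet and sex can therefore be separated only through NP+tau sample 1. The liver array of that sample stood apart, with a median distance from the median array of 0.450 against 0.0769 to 0.169 in the other 5, and muscle arrays lay between 0.0746 and 0.188. In a bulk sample, fewer cells of a type and less RNA per cell cannot be told apart.

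In muscle, most of the imprinted growth genes were still expressed at 4 weeks and 7 of 9 had a lower mean in NP+tau. Igf2, Meg3, Dlk1, Peg3 and Plagl1 were lower in every NP+tau sample than in any NP sample, by 1.47-fold to 2.57-fold. Grb10 and Igf2r were lower by small amounts with overlapping groups, and Cdkn1c and Mest had a slightly higher mean. The median difference of the 9 genes was -0.56, against 0.03 over the brightest probe sets of 13812 genes.

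The level was above background in all 6 muscle samples for 8 of the 9 genes. Dlk1 was above it in 5 of 6. Of the 30 probe sets, 19 were above background in every sample, 5 in some and 6 in none, and 28 passed the filter on dim probe sets. The other 2 were Peg3 probe sets near 3.1 to 3.4 in every muscle sample.

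**Figure D1:**
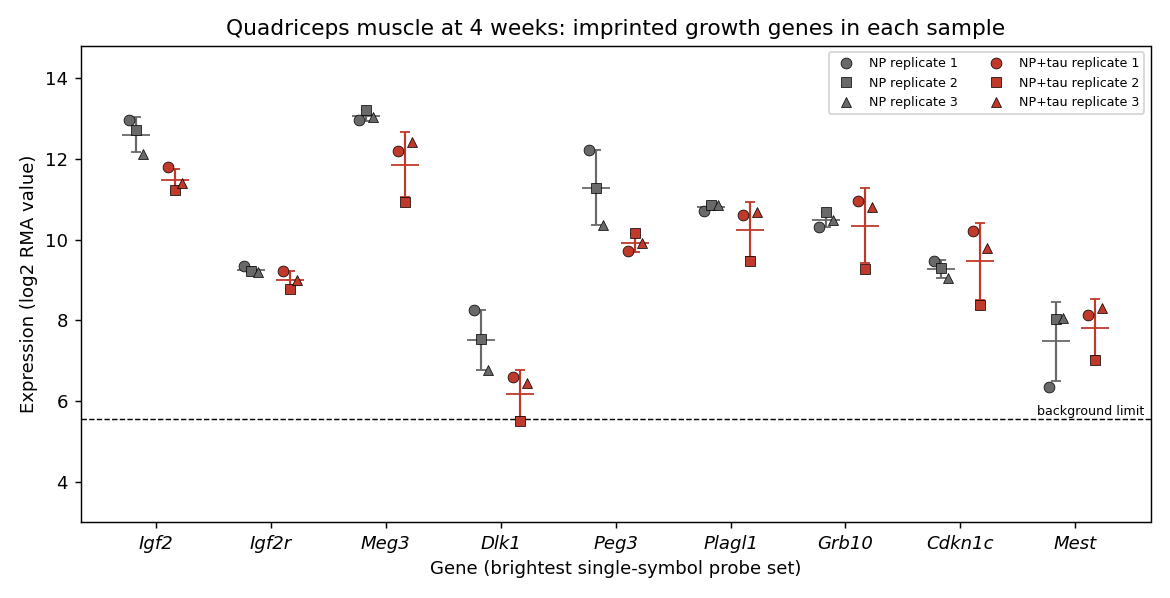
Log2 RMA value of the brightest probe set of each gene (x axis) in the 6 quadriceps samples (grey NP, red NP+tau, marker shape the replicate number), with mean and SD as bars. Every NP+tau sample lies below every NP sample for Igf2, Meg3, Dlk1, Peg3 and Plagl1, and Dlk1 of NP+tau sample 2 lies just under the background limit of 5.57 (dashed).

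Igf2, the fetal growth factor, measured 12.97, 12.72 and 12.12 in the NP muscles and 11.79, 11.23 and 11.41 in the NP+tau muscles. The groups did not overlap, and the highest NP+tau value was that of sample 1, the only NP+tau sample with the Xist level of the NP group. That sample was also the highest of its group for Dlk1, but not for Meg3 or Plagl1, and it was the lowest for Peg3. For Igf2 the difference was -1.13 ± 0.26 (SE, 3 samples a group), 2.18-fold, with an adjusted p of 0.707 in limma and an unadjusted p of 0.00328. Its second probe set was dimmer, 7.38, 6.84 and 5.79 in NP against 5.30, 5.11 and 4.98 in NP+tau. There the NP+tau samples were all under the background limit, and the fitted difference was -1.54.

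Meg3, the maternally expressed non-coding RNA, measured 12.97, 13.21 and 13.04 in NP and 12.20, 10.93 and 12.43 in NP+tau muscle. The NP samples lay close together (SD 0.126), while NP+tau sample 2 was more than 1 below the other NP+tau samples (SD of the group 0.806). The difference was -1.22 ± 0.38 (SE), 2.33-fold, and -0.76 without NP+tau sample 2. All 11 Meg3 probe sets had lower values in every NP+tau sample than in any NP sample, with differences from -1.76 to -0.28. These probe sets share 1 locus and the same samples and are no independent repeats.

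Dlk1, the neighbour of Meg3 in the same domain, measured 8.26, 7.54 and 6.77 in NP and 6.60, 5.52 and 6.45 in NP+tau muscle. The groups were close but did not overlap, and NP+tau sample 2 was again the lowest. The difference was -1.34 ± 0.43 (SE), 2.52-fold, with an unadjusted p of 0.0174. Its second probe set was under the background limit in every muscle sample, with a difference of -0.40.

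Rian and Mirg, non-coding RNAs that follow Meg3 in the same cluster and were not among the members, were the 2 other imprinted genes with the lowest unadjusted p in muscle. They are named for that p, so their differences are no separate support, and further genes of the domain are not described. Rian measured 9.41, 10.20 and 9.90 in NP and 8.80, 7.22 and 8.93 in NP+tau, a difference of -1.52 ± 0.47 (SE). Mirg measured 8.58, 9.05 and 8.86 in NP and 7.63, 5.88 and 7.81 in NP+tau, a difference of -1.72 ± 0.49 (SE). In both, as in Meg3, NP+tau sample 2 was the lowest and the groups did not overlap.

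**Figure D2:**
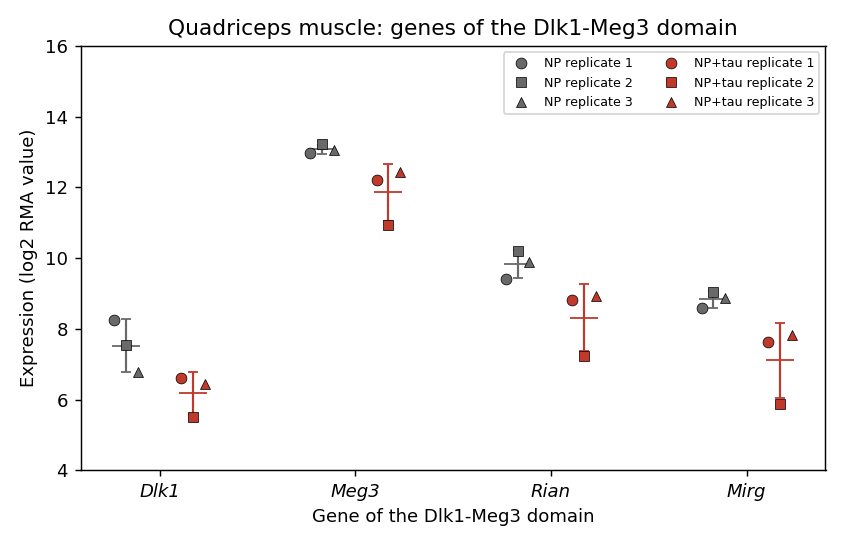
Log2 RMA value (y axis) of Dlk1, Meg3, Rian and Mirg (x axis, in the order of their loci) in the 6 quadriceps samples, grey NP and red NP+tau, marker shape the replicate number, bars mean and SD. In all 4 the NP+tau samples lie below the NP samples, and NP+tau sample 2 is the lowest, at 5.52, 10.93, 7.22 and 5.88. Rian and Mirg were chosen by their low unadjusted p, and further genes of the domain are not shown.

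Peg3, a zinc finger protein expressed from the paternal copy, measured 12.23, 11.28 and 10.36 in NP and 9.72, 10.16 and 9.91 in NP+tau muscle. Here the spread was in the NP group (SD 0.933 against 0.221), and NP+tau sample 2 was the highest of its group. The difference was -1.36 ± 0.44 (SE), 2.57-fold, and -0.89 without NP sample 1. A dimmer probe set did not overlap between groups either, at -0.86, while in the dimmest expressed one NP+tau sample 2, at 8.29, exceeded the lowest NP sample, at 8.16.

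Plagl1, a zinc finger protein that regulates other imprinted genes, measured 10.71, 10.87 and 10.85 in NP and 10.61, 9.47 and 10.68 in NP+tau muscle. Only NP+tau sample 2 was clearly apart from the NP samples. The difference was -0.56 ± 0.32 (SE) with it and -0.17 without it. Of 2 dimmer Plagl1 probe sets, neither above background in any sample, the brighter differed by -0.39 with no overlap and the dimmer by -0.07 with overlap.

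Grb10, the adaptor, measured 10.31, 10.68 and 10.49 in NP and 10.95, 9.28 and 10.80 in NP+tau muscle. NP+tau sample 2 was below and the other NP+tau samples above all NP samples, so that the difference of -0.15 ± 0.43 (SE) turned to 0.39 without that sample. The other Grb10 probe sets differed by -0.32 and -0.99, also with overlap. Igf2r was the least variable member, 9.34, 9.22 and 9.19 in NP against 9.22, 8.78 and 9.01 in NP+tau, a difference of -0.25 ± 0.16 (SE). Its other probe set differed by 0.01.

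Cdkn1c, the cell cycle inhibitor, measured 9.47, 9.30 and 9.04 in NP and 10.21, 8.39 and 9.80 in NP+tau muscle, where sample 2 was the lowest and the other 2 the highest of all 6. Its difference was 0.19 ± 0.44 (SE). Mest measured 6.35, 8.04 and 8.06 in NP and 8.14, 7.01 and 8.32 in NP+tau. NP sample 1 and NP+tau sample 2 were low, and the difference was 0.34 ± 0.54 (SE). For both genes the sign depended on a single sample, as Cdkn1c gave -0.18 without NP+tau sample 1 and Mest -0.23 without NP sample 1.

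The probe set shared by H19 and Mir675 was bright in every muscle sample, 14.22, 13.98 and 13.75 in NP and 13.81, 13.64 and 13.66 in NP+tau. The groups overlapped, with a difference of -0.28 ± 0.16 (SE).

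Over the 28 muscle probe sets that passed the filter, 25 had a lower and 3 a higher mean in NP+tau. In 18 the NP+tau samples were all lower than the NP samples, against 7.77% of all probe sets tested, and in 0 all higher. An unadjusted p under 0.05 with a lower mean was found in 16, against 2.4% of all probe sets. The 25 included a dim Dlk1 probe set that passed the filter, at 4.49, only through NP samples. Its highest value was 4.84 in NP and 4.43 in NP+tau. The 18 included a probe set each of Meg3 and Plagl1 that was above background in no sample. Since 11 of the 18 were probe sets of Meg3, the count was also made by gene. By gene it was 5 of 9, against 7.25% of the brightest probe sets of all genes. The genes were measured in the same samples, and Meg3 and Dlk1 lie in the same domain, so they are not independent. The members were also chosen with earlier results of these data known, so these counts are descriptions and no test.

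Markers of other cells of muscle were measured beside these genes. Of 14 markers of myogenic precursors, 12 passed the filter, 5 lower and 7 higher, and their mean was 6.13 to 6.41 with the groups overlapping. Myog, the factor of muscle differentiation, measured 6.20, 6.39 and 6.35 in NP and 8.10, 7.84 and 7.58 in NP+tau, a difference of 1.53 ± 0.17 (SE) with an adjusted p of 0.458. Chrna1, a subunit of the acetylcholine receptor, differed by -0.76 with overlap, and Myh8, the perinatal myosin heavy chain, by -0.50 with no overlap. Macrophage markers were lower in 11 of 12 (list mean 6.43 to 7.01 in NP, 5.96 to 6.75 in NP+tau) and endothelial markers higher in 8 of 12 (7.17 to 7.33 in NP, 7.36 to 7.44 in NP+tau). Markers of stellate cells and fibroblasts were lower in 5 of 11 and higher in 6 (10.55 to 11.39 in NP, 10.82 to 11.07 in NP+tau). Among them Pdgfra differed by -0.69, Dcn by -0.42 and Rgs5 by 0.30. Hepatocyte markers were lower in 7 of the 8 that passed the filter. Adipocyte markers were lower in 4 of 6 (7.71 to 8.31 in NP, 7.26 to 8.37 in NP+tau). Neutrophil markers were lower in 6 of 9 and varied widely among the NP samples (5.73 to 9.73 in NP, 7.30 to 8.43 in NP+tau). The part of these cells in the differences of the imprinted genes was not tested.

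In liver, 7 of 9 members had a lower mean in NP+tau. Peg3, Grb10, Plagl1, Igf2r and Meg3 had lower values in every NP+tau sample than in any NP sample, by 1.50-fold to 3.75-fold. For Meg3 this held at only 1 of the 10 probe sets tested. The mean over the 10 differed by -0.07, and only 5 of them were above background in every liver sample. Igf2 and Mest had slightly lower means with overlap, Cdkn1c and Dlk1 slightly higher ones. The median difference of the 9 genes was -0.58, which is that of Meg3 at its brightest probe set, against -0.04 over 14202 genes.

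Expression at 4 weeks was also above the background limit in all 6 liver samples for 8 of the 9 genes. Several of these were near that limit, and against the stricter 99th percentile of the same background list, 6.77, 3 genes (Grb10, Peg3 and Mest) stayed above in all 6. In muscle the same limit was 6.18 and 8 genes stayed above. Dlk1 in liver was above background in 0 of 6 samples, at 4.50 to 5.15. Of the 30 probe sets, 16 were above background in every liver sample, 3 in some and 11 in none, and 24 passed the filter. The 6 that failed it were 1 probe set each of Igf2, Meg3, Dlk1 and Plagl1 and the same 2 of Peg3 as in muscle.

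**Figure D3:**
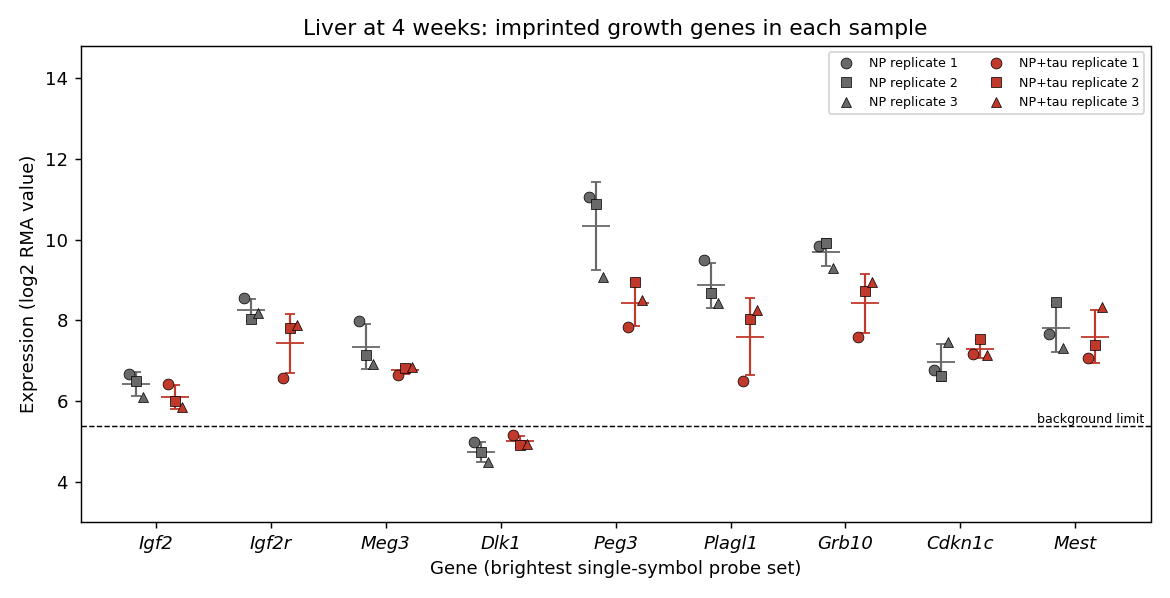
Log2 RMA value of the brightest probe set of each gene (x axis) in the 6 liver samples (grey NP, red NP+tau, marker shape the replicate number), with mean and SD as bars and the background limit of 5.38 dashed. NP+tau sample 1 is the lowest for Igf2r, Meg3, Peg3, Plagl1, Grb10 and Mest, and Dlk1 is under the limit in every sample.

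Peg3 had the widest range of the members above background in liver, 3.21. It measured 11.05, 10.89 and 9.08 in NP and 7.84, 8.95 and 8.51 in NP+tau. NP sample 3 lay just above the highest NP+tau sample, so the groups were separate by a small margin. The difference was -1.91 ± 0.56 (SE), 3.75-fold, with an adjusted p of 0.718 and an unadjusted p of 0.0114. Without the outlying NP+tau sample 1 it was -1.61, and without the samples numbered 1 of both groups -1.25. The other 2 expressed Peg3 probe sets differed by -2.26 and -1.83, again with no overlap.

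Grb10 measured 9.84, 9.93 and 9.31 in NP and 7.59, 8.73 and 8.95 in NP+tau liver. All 3 NP+tau samples were below the NP samples, sample 1 the farthest. The difference was -1.27 ± 0.38 (SE), 2.41-fold, and -0.85 without NP+tau sample 1. Both other probe sets of Grb10 were separate in the same direction, at -0.98 and -0.50.

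Plagl1 measured 9.50, 8.68 and 8.43 in NP and 6.49, 8.04 and 8.25 in NP+tau liver. Its difference of -1.27 ± 0.51 (SE) was -0.72 without NP+tau sample 1 and -0.41 without both samples numbered 1. Igf2r measured 8.56, 8.04 and 8.17 in NP and 6.58, 7.82 and 7.88 in NP+tau, a difference of -0.83 ± 0.37 (SE), which was -0.41 without NP+tau sample 1 and -0.25 without both. Both differences thus fell by more than 1.5 times without the outlying array, although the other NP+tau samples were also below every NP sample. The second Igf2r probe set differed by -0.65 with overlap, and the dimmer Plagl1 probe set tested differed by 0.33 under the background limit.

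Meg3 at its brightest probe set measured 7.99, 7.15 and 6.92 in NP and 6.65, 6.81 and 6.86 in NP+tau liver. The difference was -0.58 ± 0.29 (SE), and -0.26 without NP sample 1. Its 10 probe sets that passed the filter did not move together, 5 having a lower and 5 a higher mean, from -0.68 to 0.37, and 1 of them was separate between groups. Only 5 of the 10 were above background in all 6 liver samples, and these differed by -0.68, -0.58, -0.01, -0.01 and 0.28. The probe set at 0.37 was above background in no sample and passed the filter only through the outlying NP+tau sample 1, at 4.89. In muscle all 11 were lower, 8 of them above background in every sample.

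Igf2 was low in liver, 6.67, 6.51 and 6.10 in NP and 6.43, 6.01 and 5.85 in NP+tau, a difference of -0.33 ± 0.24 (SE), which ranged from -0.49 to -0.20 with 1 sample left out (-0.49 without NP+tau sample 1, -0.20 without NP sample 1 or NP+tau sample 3). Cdkn1c measured 6.77, 6.63 and 7.47 in NP and 7.18, 7.54 and 7.15 in NP+tau, a difference of 0.33 ± 0.27 (SE), which was 0.17 without NP sample 2 and 0.59 without NP sample 3. Mest measured 7.67, 8.45 and 7.31 in NP and 7.08, 7.39 and 8.33 in NP+tau, with wide overlap and a difference of -0.21 ± 0.41 (SE). Dlk1 differed by 0.26 under the background limit, and by 0.14 without NP sample 3.

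The H19 and Mir675 probe set varied more in liver than any member, 9.11, 12.63 and 11.17 in NP and 10.79, 6.26 and 11.13 in NP+tau. It ranged over 6.38 on the log2 scale without following the groups, and its difference was -1.58 ± 1.43 (SE). The liver of NP+tau sample 2 had the lowest value, while that of sample 1, the array that stood apart, lay within the NP range.

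Over the 24 liver probe sets that passed the filter, 16 had a lower and 8 a higher mean in NP+tau. In 9 the NP+tau samples were all lower, against 9.11% of all probe sets tested, and in 0 all higher. Of the 6 probe sets that failed the filter, 3 had every NP+tau sample slightly higher, all of them under the background limit. An unadjusted p under 0.05 with a lower mean was found in 6, against 3.99% of all. By gene, 5 of 9 were separate and lower, Meg3 at its brightest probe set only, against 9.22% of the brightest probe sets of all genes. As in muscle, these counts are descriptions and no test. Of all 14202 genes, 53.7% had a lower mean in NP+tau liver, against 45.4% of 13812 in muscle.

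**Figure D4:**
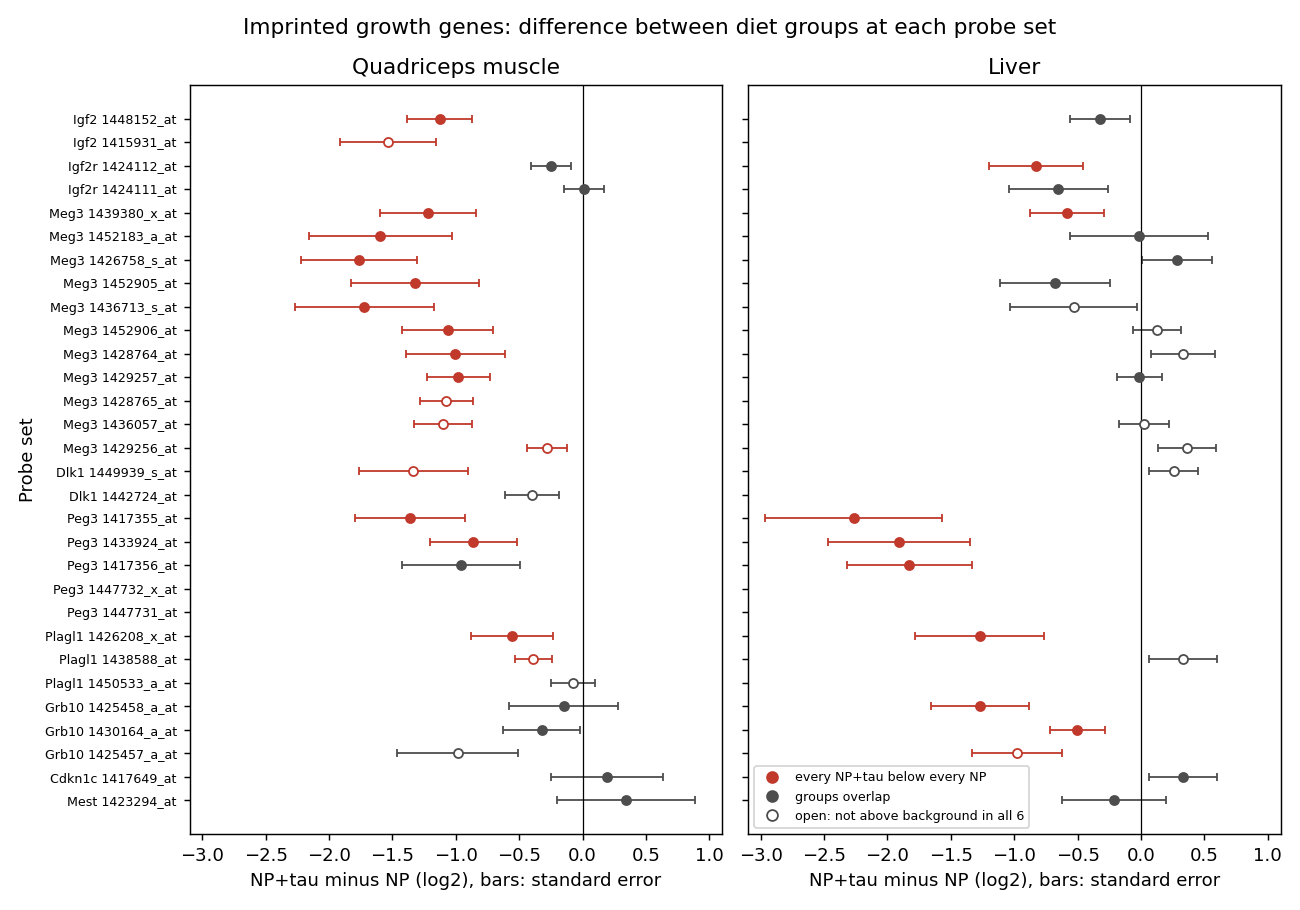
Difference NP+tau minus NP (x axis, log2, bars the standard error) for each member probe set (y axis) in muscle and liver, red where every NP+tau sample lies below every NP sample, open where not all 6 samples are above background. Rows with no point failed the filter on dim probe sets. All 11 Meg3 probe sets are red in muscle and 1 in liver, while the 3 of Grb10 are red in liver and none in muscle.

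Alpha-fetoprotein is the classic gene that liver switches off after birth, and it was read beside the members from a list of 9 such genes and their repressors. Afp measured 12.03, 9.97 and 8.33 in NP and 5.50, 6.51 and 7.16 in NP+tau liver, a difference of -3.72 ± 0.90 (SE) with an adjusted p of 0.718. The groups did not overlap, and the NP samples covered a wide range. Of the 8 genes of this list that passed the filter, 5 were lower and 3 higher, with a median difference of -0.11, and Zhx3, a relative of the known Afp repressor Zhx2, differed by -0.95. H19 is known to belong to the same class of genes.

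Insulin-like growth factor partners of the members were lower in 12 of 16 in liver (median -0.36) and in 10 of 15 in muscle (median -0.17). In liver Igf1r, the signalling receptor for Igf2, measured 7.12, 6.57 and 6.32 in NP and 5.71, 5.96 and 6.05 in NP+tau, a difference of -0.77 ± 0.25 (SE). The binding proteins Igfbp2 and Igfbp1 differed by -0.85 and -1.53, the latter with overlap. In muscle the binding protein Igfbp6 differed by -0.57 and the glypican Gpc3 by -0.86, both separate between groups.

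Imprinted genes outside the member list did not share one direction. In liver 20 of 41 were lower and 21 higher, with a median difference of 0.02, and Tfpi2, a protease inhibitor, differed by 1.12 and the proteoglycan Dcn, also a stellate cell and fibroblast marker, by -0.77. In muscle 27 of 42 were lower and 15 higher, with a median of -0.10, and Kcnq1ot1, the non-coding RNA of the Cdkn1c domain, was higher at 7.97, 7.81 and 7.91 in NP against 8.14, 9.07 and 8.57 in NP+tau. Regulators of imprints were lower in 10 of 14 in liver (median -0.48) and higher in 11 of 14 in muscle (median 0.24). In either tissue 0 had an unadjusted p under 0.05 in limma, and the groups overlapped in the mean of the list. That mean was 6.00, 6.29 and 6.66 for the NP+tau livers, the outlying sample 1 being the lowest, while NP liver 2 had 6.52. For the NP+tau muscles it was 6.82, 6.85 and 7.32, sample 3 being the highest, while NP muscle 3 had 6.99.

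The mean levels of stellate cell and fibroblast, macrophage, neutrophil and erythroid markers were lower in every NP+tau liver than in any NP liver. Those of endothelial, adipocyte and cholangiocyte markers overlapped between the groups. Of 12 markers of stellate cells and fibroblasts, 9 were lower and 7 had an unadjusted p under 0.05, and their means spanned 8.06 to 8.73 over the NP samples and 7.49 to 7.78 over the NP+tau samples. Macrophage and Kupffer cell markers were lower in 14 of 14, 10 of them at that p, with means of 8.84 to 9.79 and 7.47 to 8.42. Neutrophil markers were lower in 8 of 10, at 8.91 in NP sample 1, 6.25 and 6.32 in the other NP samples and 5.08 to 5.65 in NP+tau. Hepatocyte markers differed little in their mean, 14.2 to 14.3, with 7 of 12 lower. Still, 4 were lower in every NP+tau sample than in any NP sample, against 9.22% of all genes, and 1 was higher. The lower ones included the fibrinogen chains Fgb (-0.47), Fga (-0.32) and Fgg (-0.29). Erythroid markers were lower in 6 of 7, with means of 6.71 to 7.36 and 6.28 to 6.56, and adipocyte markers in the 3 that passed the filter, at 6.65 to 8.35 and 6.37 to 7.02. Endothelial markers were lower in 9 of 12, at 7.21 to 7.53 and 6.86 to 7.60. On the liver array of NP+tau sample 1, lists of genes not typical of liver had higher means. Genes of other organs averaged 5.31 against 4.64 to 4.82 in the other 5 samples, muscle fibre markers 5.48 against 4.59 to 4.65 and myogenic precursor markers 5.18 against 4.42 to 4.52. The part of these cells in the liver values of the imprinted genes was not tested.

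**Figure D5:**
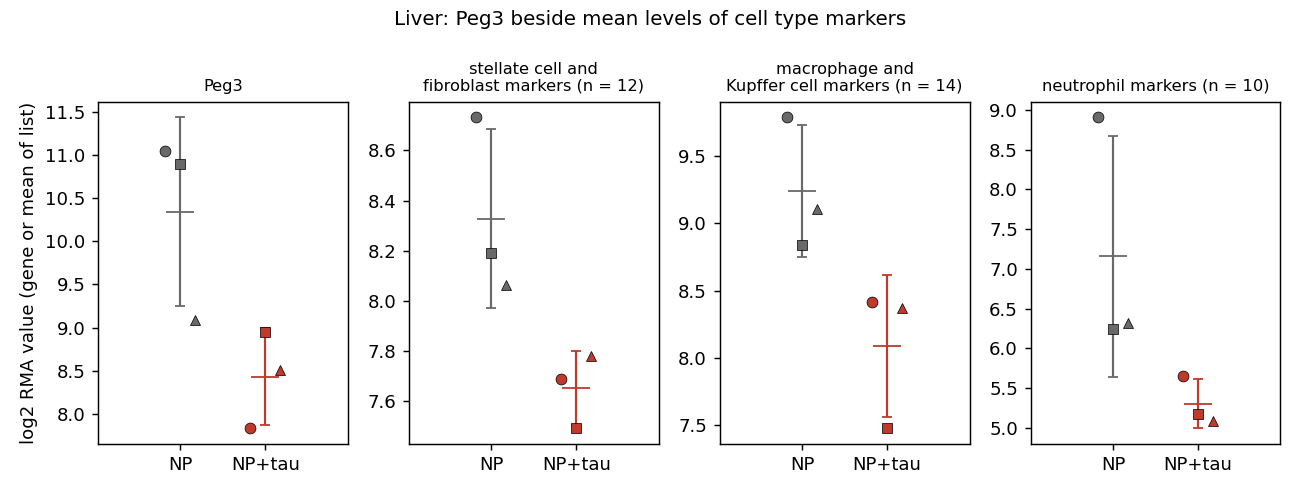
Liver Peg3 and the mean of 3 lists of cell type markers (y axes, log2 RMA value, each panel on its own scale that does not start at 0) in NP (grey) and NP+tau (red) samples, marker shape the replicate number (circle 1, square 2, triangle 3), bars mean and SD. All 4 panels have every NP+tau sample below every NP sample, and the lowest sample is NP+tau 1 for Peg3 and NP+tau 2 for the stellate and macrophage lists. Lists whose means overlapped between the groups, such as hepatocyte and endothelial markers, are not shown.

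Among members above background in all 6 samples, Peg3 also had the widest range in muscle, 2.51, and the genes whose values ran most like it over the 6 samples of each tissue were listed as a description. In liver these were Epn2, Tff3, Pla2g7, Zbtb11os1 and Sfswap, with Pearson's r from 0.981 to 0.990 among 8276 genes above background in all 6 samples. Pla2g7 measured 8.56, 8.18 and 6.40 in NP and 5.39, 5.97 and 5.45 in NP+tau. In muscle they were Pm20d2, Ppp1r1b, Acvr1b, Eif3f and Rundc3a, with r from 0.978 to 0.994 among 8562 genes. No gene was in both lists of 5. Each r rests on 6 points, which share the same arrays.

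The taurine difference was then compared between tissues by the interaction in limma, muscle minus liver, over the 25622 probe sets that passed in both, of which 0.0% passed an adjusted p of 0.05 and 1999 had an unadjusted p under 0.05. No member passed, the lowest adjusted p being 0.542. Dlk1 had an interaction of -1.59 ± 0.51 (SE, unadjusted p = 0.00888), with the liver side under background. Meg3 gave -2.05 ± 0.57 (SE) at 1 of its probe sets and -0.64 ± 0.51 (SE) at its brightest. Igf2 gave -0.80 ± 0.37 (SE), and Grb10, lower in liver, 1.12 ± 0.62 (SE). The difference was not shown to differ between the tissues for any of them. Peg3, Plagl1 and Meg3 were separate and lower in both tissues at their brightest probe sets, measured in the same animals.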

How the data were processed

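RNA of liver and quadriceps was labelled and hybridised to 12 Affymetrix whole-genome mouse arrays. The deposited table holds log2 values for 45101 probe sets. The authors made them from the scanned arrays, separately for each tissue, with the justRMA function (Bioconductor 2.2, run in R 2.7.0), which corrects background, equalises the distributions of the arrays and summarises the probes of a set. Detection calls were not used here. Array intensities hold no read depth, and the number of arrays limits the precision.

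The 64 control probe sets were removed, and probe sets entered the fit of a tissue where the highest of 6 values reached the 35th percentile of such values. The fits were NP+tau against NP, tissue by tissue, and the comparison between tissues as an interaction over 4 groups, with lmFit and eBayes of limma 3.58.1 (R 4.3.3) and Benjamini-Hochberg adjustment over all probe sets kept. Genes were named through the platform annotation provided with the series (34958 probe sets with 1 symbol, controls included, 932 with several and 9211 with none). The fit was tested on simulated data.

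Named are all members with every single-symbol probe set, up to 3 genes with the lowest unadjusted p of each other list where a result touches it, and the 5 genes most like the member of widest range. The members and lists were chosen with earlier results of these data known. Alternatives were other filters, an intensity trend, array weights, centring, Xist as a covariate, a replicate block, other background limits, the mean over the probe sets of a gene, the animal as a random block and leaving out samples. Replicate numbers did not pair the samples within a tissue. Tables were handled with Python 3.11.15 and pandas 2.3.3, the figures drawn with matplotlib 3.10.9 and the random block fitted with statmod 1.5.0.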

Additional observations from a re-analysis of the deposited data

How the results depend on the processing

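The number of probe sets past an adjusted p of 0.05 was 0 in each tissue as reported and stayed there with no filter, the 50th percentile filter, an intensity trend and centring. In liver it was 8 with array weights and 9449 with Xist as a covariate, a fit that in effect sets the outlying array of NP+tau sample 1 against the NP group. There Grb10 gave -2.26 (adjusted p 0.00707 in limma), Igf2r -1.80 (0.00909), Plagl1 -2.56 (0.0122) and Peg3 -2.57 (0.0664), while Igf2 turned to 0.0696. In muscle the same covariate left Igf2 at -0.84, Meg3 at -0.93, Dlk1 at -0.99 and Peg3 at -1.61, none called, and turned Grb10 to 0.41, as array weights did at 0.0438. Leaving out 1 sample gave 0 to 9 calls in liver (9 without NP+tau sample 1) and 0 to 8 in muscle (8 without NP+tau sample 1). Leaving out the samples numbered 1 of both groups, chosen after seeing the data, gave 10 in liver and 3 in muscle, with Cdkn1c at -0.0799 and Mest at -0.39 in muscle. No member was called with samples left out. Without 1 sample, Cdkn1c in muscle ranged from -0.18 to 0.73, Mest from -0.23 to 0.75 and Grb10 from -0.45 to 0.39, and Mest in liver from -0.57 to 0.11. Above the 99th percentile of the background list were 3 members in liver. The mean over the probe sets of a gene gave -0.07 for Meg3 and -0.47 for Plagl1 in liver, and -0.87 for Dlk1 and -0.34 for Plagl1 in muscle. Centring moved the median of all liver probe sets from -0.04 to 0.07. Dlk1 in liver had no value under the 50th percentile filter. With the replicate block, where the deviations of same-numbered samples correlated from -0.114 to 0.112 in liver and from -0.271 to 0.334 in muscle, the count was 0 in both tissues and no call changed. The interaction gave 0 calls under every alternative tried.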
